A study of Drosophila melanogaster with 4 samples.

Results

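The cut-and-paste DNA transposons of the Drosophila melanogaster genome, with the abundant P-like element Hoppel set aside, are described here by the small RNAs that map to them in ovaries. They are the annotated repeat copies of class DNA whose name does not begin with PROTOP, the Repbase name of Hoppel. The rule found 2275 copies under 31 repeat names, of 137555 copies in the table, with positions on genome build dm6. Of these names, 26 had a count in any library and 5 had none. Small RNAs came from ovaries of Ars2KD flies, in which a hairpin against Ars2 (Ars2_sh1, Vienna stock 106344) acted in the germline, and of wKD flies, the control, in which the germline hairpin was against white, a gene for eye pigment (white_sh, Vienna stock 30033). Each group had 2 libraries, numbered 1 and 2 in the labels. Ars2 is an RNA-binding partner of the nuclear cap-binding complex. The knockdown is described as germline, so the somatic follicle cells of the ovary stay outside it by design. The germline driver, the age of the flies, and whether libraries came from separate animals are not stated in the labels. The p-values therefore rest on the spread of these 4 samples alone, and that spread may be technical.

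DNA transposons move as DNA: a transposase cuts the element at its terminal inverted repeats and pastes it elsewhere, and many copies are short remnants that depend on an enzyme made by another copy. In the fly germline they are restrained by piRNAs, small RNAs bound by PIWI proteins that silence matching transposons. Most piRNAs come from clusters of old transposon fragments, of which 42AB and 38C are transcribed from both strands in germ cells, while flamenco acts in follicle cells.

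The table counts reads of 24 to 29 nt, the usual piRNA length, and holds 46218 and 169124 counts in Ars2KD 1 and 2 against 64395 and 323180 counts in wKD 1 and 2. Reads were not otherwise checked to be piRNAs. The libraries numbered 1 are the shallow ones in both groups, and same-numbered libraries departed from their group means together (r = 0.69 over 177 names that share these 4 libraries). Ratios are therefore also given within each number, written as number 1 and number 2, each with an exact 95% binomial interval for counting error. The ovary miRNAs miR-184-3p, loaded into eggs, and miR-989-3p, of follicle cells, held 11.97% and 47.6% and 6.98% and 8.29% of miRNA counts in Ars2KD 1 and 2, against 11.5% and 35.1% and 6.42% and 7.29% in wKD 1 and 2. A second follicle-cell miRNA, miR-318-3p, held 0.791% and 0.386% in Ars2KD 1 and 2, against 0.875% and 2.03% in wKD 1 and 2. Within each number miR-989-3p was thus higher and miR-318-3p lower in Ars2KD, although for miR-989-3p the groups overlapped. The part of these miRNAs in the results was not tested. The level of Ars2 RNA was not analysed here. In such bulk samples fewer cells of a type and less RNA per cell cannot be told apart.

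DNA transposons other than Hoppel were a small and uneven source of these reads. They had 1990 and 5173 counts in Ars2KD 1 and 2, and 3283 and 14197 counts in wKD 1 and 2. That is 4.31% (95% Clopper-Pearson interval 4.12 to 4.49) and 3.06% (2.98 to 3.14) of the Ars2KD libraries, and 5.10% (4.93 to 5.27) and 4.39% (4.32 to 4.46) of the wKD libraries. The shares averaged 3.68% ± 0.882 in Ars2KD and 4.75% ± 0.499 in wKD (SD, n = 2 each). Both Ars2KD libraries lay below both wKD libraries, with a mean difference of -1.06 percentage points. With 2 libraries a group the smallest two-sided exact permutation p is 1 in 3, and no test was made of this sum. The gap was -0.440 percentage points without Ars2KD 2 and -1.69 without Ars2KD 1. For comparison, the excluded Hoppel took 2.53% and 1.505% of Ars2KD 1 and 2, against 2.65% and 1.77% of wKD 1 and 2. The rolling-circle element INE-1 took 2.62% and 1.47% of Ars2KD 1 and 2, against 2.59% and 1.89% of wKD 1 and 2.

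The reads were concentrated on few names and few copies. NOF (NOF_FB in the table), a transposase-bearing element found inside some foldback elements, took 44.2% of the 24643 member reads, and the hAT element hobo took 21.3%. The Tc1-like element S followed with 10.3%, and Transib5, of the Transib superfamily whose transposase is related to the RAG1 recombinase, with 6.87%. Transib2 gave 5.17%, the piggyBac-type looper1 3.01% and M4DM, whose 2 tested copies in 38C overlap annotated insertions of hopper2, gave 2.29%. The other names each held less than 2%. Across copies, 535 of 2275 copies had any count, and the 10 largest held 61.0% of the reads.

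Reads per length of annotated copy varied widely between names. NOF had 2427 reads per kb of annotated copy over its 12 copies and 4488 bp, looper1 had 90.2 per kb and hobo 70.1 per kb. FB4, the foldback element proper, had 3.04 reads per kb over 329 copies and 150960 bp. BARI_DM, the Tc1-like Bari element, had 82 copies of 1724 bp median length and 132280 bp in all, and only 22 reads, or 0.166 per kb. How reads with several matches were treated is not given, so reads per kb of names with near-identical copies are uncertain. Over the 31 names the Spearman correlation of annotated length with total reads was 0.74, a description across names that share the same libraries and differ in copy number.

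**Figure D1:**
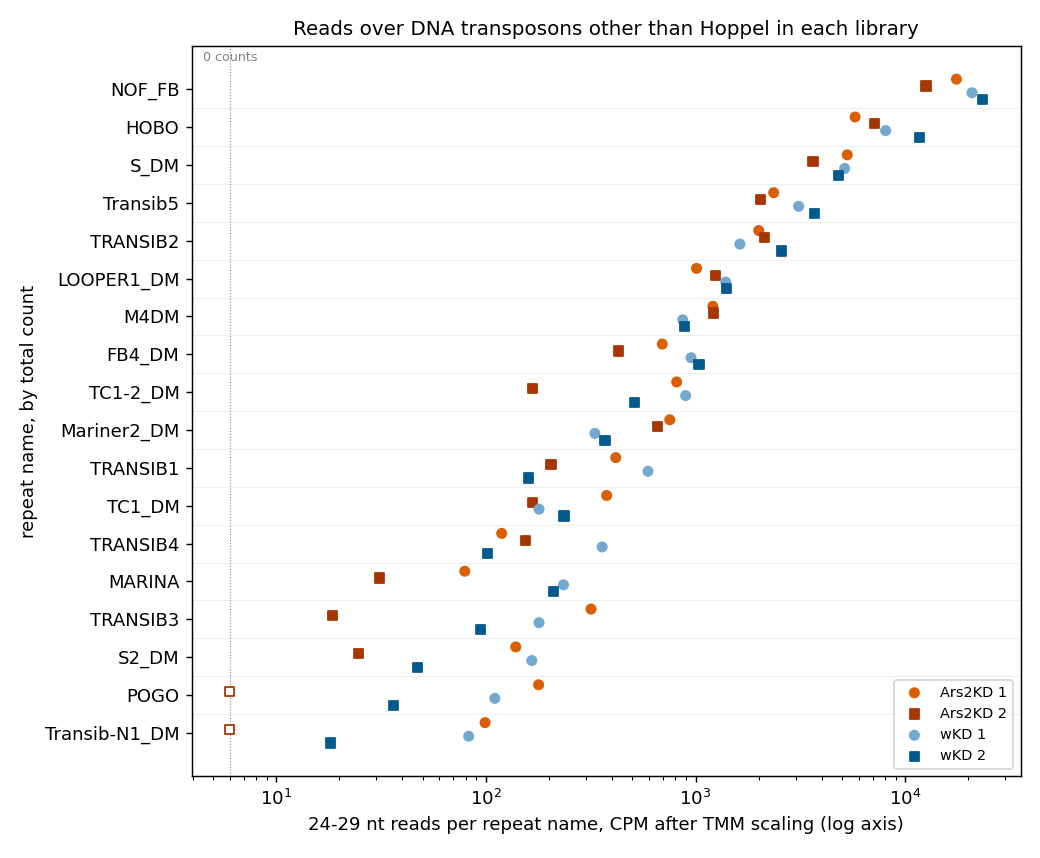
Reads of 24 to 29 nt over each of the 18 repeat names that passed the low-count filter, as CPM after TMM scaling on a log axis, with 1 marker per library (orange Ars2KD, blue wKD; circles number 1, squares number 2; open markers at the dotted line are counts of 0). NOF lies highest at 12576 to 23468 CPM, and the Ars2KD markers of NOF, hobo, Transib5, looper1, FB4 and MARINA all lie left of the wKD markers.

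The reads lay in piRNA clusters far more than the copies did. The 42AB cluster on arm 2R (limits approximate, from general usage) holds 25 of the 2275 copies, and these gave 58.5% and 55.9% of member reads in Ars2KD 1 and 2, against 66.3% and 66.6% in wKD 1 and 2. The 45 copies of 38C on arm 2L gave 16.6% and 19.8% in Ars2KD and 13.3% and 14.2% in wKD. Concentration in clusters was not particular to the members, although their shares in 42AB and 38C were the larger. All other repeats have 312 copies in 42AB. These gave 18.8% and 26.6% of the reads of other repeats in Ars2KD 1 and 2, against 24.03% and 34.9% in wKD 1 and 2. Their 84 copies in 38C gave 3.48% of such reads, summed over the 4 libraries. No member copy lies in flamenco or 20A, and the 4 copies in 80F, all of looper1, gave 0.247% to 0.274% of member reads in the 4 libraries. Copies between genes held 91.6% of the reads, introns 7.68%, and exons, coding sequence or UTRs 0.678%.

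The names differed in where their reads lay, although several shared 42AB or 38C. All 10891 NOF reads came from its 9 copies in 42AB. Of hobo reads a mean of 58.1% over the 4 libraries lay in 42AB and 23.1% in 38C, and of S reads 31.1% and 25.7%. The reads of looper1 came mostly from a single 1854 bp copy in 42AB (2R:6465096-6466949, 84.8% of its reads), which overlaps annotated insertions of looper1, Hoppel and the LINE element G4. Transib5 reads came mostly from a single 1195 bp copy in 38C (2L:20113749-20114943, between genes, 9599 bp from CG13970, 79.4%). Mariner2, TC1_DM and Transib4, among others, have no annotated copy in either cluster and so could have no read there. FB4 has 2 short copies in 42AB, of 110 bp together, which had no read, and none in 38C. FB4 and NOF, which are parts of the same composite element, had reads in different places, but their annotated copies also lie apart. Of NOF, 4105 of 4488 bp lie in 42AB, against 110 of 150960 bp of FB4. By counts summed over the 4 libraries, the largest copy of Transib2 (X:23006036-23006359, between genes) held 15.6% of its reads and that of M4DM (2R:2917413-2918093, between genes, 14502 bp from Scp1) held 38.1%. Both ranks came from the deeper libraries. In Ars2KD 1 and wKD 1 that Transib2 copy had 3 and 4 counts, against 20 and 20 for a 38C copy (2L:20220796-20221334), and that M4DM copy had 10 and 4 counts, against 29 and 16 for a 38C copy (2L:20169482-20170273). TC1-2 had 22.3% of its reads on a copy that overlaps coding sequence and the 5' UTR of fuss on chromosome 4 (4:968778-970213). Transib1 had 37.6% on a 42AB copy (2R:6480241-6481816), TC1_DM 27.4% on a copy between genes (2L:23178385-23178990), Transib4 27.1% on 2L (2L:22237998-22238440), pogo 33.3% on an intronic copy in Ir41a (2R:4923858-4924237), and S2, Transib3 and Transib-N1 at most 18.8% on any copy.

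**Figure D2:**
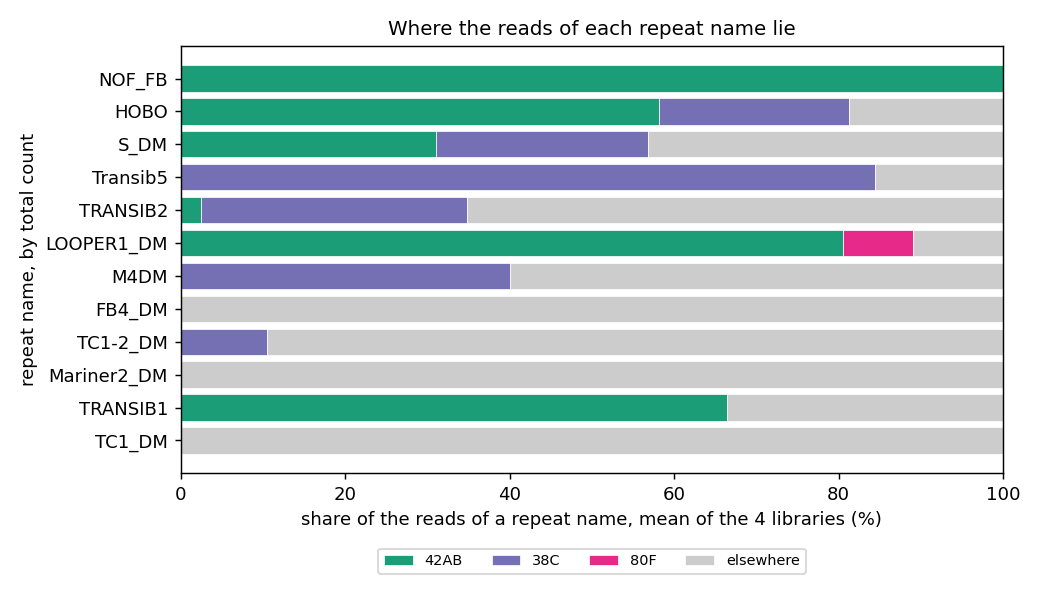
Share of the reads of each repeat name with at least 100 counts that lie in clusters 42AB, 38C and 80F and elsewhere in the genome, as the mean of the shares in the 4 libraries (percent). Bars run from 0 to 100%. NOF lies wholly in 42AB, Transib5 mostly in 38C (84.4%), and FB4, Mariner2 and TC1_DM wholly elsewhere.

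The comparison asked whether small RNAs over each DNA transposon differed between Ars2KD and wKD. The hairpins of these groups came from different stocks, so differences from the knockdown and from the stock cannot be told apart. Of the 31 names, 18 passed the low-count filter and 0 passed the edgeR quasi-likelihood test in either direction, where 0.565% of all 177 names tested were called higher and 0% lower (Benjamini-Hochberg adjusted p under 0.05). At an unadjusted p under 0.05, 1 member (Mariner2) was higher, against 4.52% of all names, and 0 were lower, against 3.95%. DESeq2 and limma-voom also called 0 members. The members' median log2 ratio of Ars2KD over wKD was -0.29, and that of all names tested was -0.04. The members' median was 0.10 without Ars2KD 2, 0.05 without wKD 1 and -0.04 without the largest copy of each name. Below 0 were 13 of 18 members, against 55.9% of all names. Both Ars2KD libraries lay below both wKD libraries for 6 members, or 33.3%, against 18.6% of all names, and above them for 2, or 11.1%, against 15.3%. These counts describe names that passed a filter on the same libraries and are not a test of the group. On counts simulated at this spread the test recovered 0% of 2-fold, 70% of 4-fold and 100% of 8-fold changes among 175 names, so differences of the size of the NOF and hobo values are below what it could call.

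NOF had the largest normalised count of the group. It had 17562 and 12576 CPM in Ars2KD 1 and 2, and 20824 and 23468 CPM in wKD 1 and 2. Both Ars2KD libraries were below both wKD libraries, with a mean of 15069 ± 3525 CPM for Ars2KD against 22146 ± 1869 CPM for wKD (SD, n = 2 each). The log2 ratio was -0.56 (SE 0.35, edgeR adjusted p 0.751), with -0.25 (-0.37 to -0.13) in number 1 and -0.90 (-0.97 to -0.83) in number 2. FB4 had 694 and 427 CPM in Ars2KD 1 and 2, and 952 and 1038 CPM in wKD 1 and 2. These groups did not overlap either. The log2 ratio was -0.85 (SE 0.38, edgeR adjusted p 0.545), and it was -0.46 (-1.09 to 0.15) in number 1 and -1.28 (-1.68 to -0.90) in number 2.

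hobo, an element that invaded natural populations of the species recently, had 5768 and 7149 CPM in Ars2KD 1 and 2, and 8068 and 11707 CPM in wKD 1 and 2. The groups did not overlap, although wKD 2 stood well above the other 3 libraries. The log2 ratio was -0.61 (SE 0.34, edgeR adjusted p 0.722), and it was -0.48 (-0.69 to -0.28) in number 1 and -0.71 (-0.81 to -0.61) in number 2. In 42AB hobo had 153 and 561 counts in Ars2KD against 382 and 2130 counts in wKD, log2 ratios of -0.80 (-1.08 to -0.52) and -1.15 (-1.29 to -1.02) within numbers. In 38C it had 78 and 347 counts in Ars2KD against 112 and 532 counts in wKD, with 0.00 (-0.43 to 0.43) and 0.15 (-0.04 to 0.35). Elsewhere it had -0.08 (-0.57 to 0.41) in number 1 and -0.42 (-0.65 to -0.20) in number 2.

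The Transib superfamily had 7 names tested, with log2 ratios from -0.65 to 0.47 and a median of -0.27. Transib5 had 2359 and 2044 CPM in Ars2KD 1 and 2, and 3103 and 3699 CPM in wKD 1 and 2, without overlap. Its log2 ratio was -0.63 (SE 0.30, edgeR adjusted p 0.604), and it was -0.40 (-0.73 to -0.07) in number 1 and -0.86 (-1.04 to -0.68) in number 2. It was -0.25 when the largest copy of each DNA transposon, here the single 38C copy, was left out. M4DM stood on the other side, with 1209 and 1214 CPM in Ars2KD 1 and 2, and 869 and 886 CPM in wKD 1 and 2. Its replicates lay close together and its groups did not overlap, yet the log2 ratio of 0.47 (SE 0.31, edgeR adjusted p 0.751) did not pass, and within numbers it was 0.48 (-0.06 to 1.01) and 0.46 (0.18 to 0.73). Its reads in 38C had log2 ratios of 1.11 (0.32 to 1.92) and 1.03 (0.52 to 1.54) within numbers, and its reads elsewhere -0.12 (-0.90 to 0.64) and 0.19 (-0.15 to 0.53).

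Transib2 had 2002 and 2137 CPM in Ars2KD 1 and 2, and 1627 and 2581 CPM in wKD 1 and 2, so the Ars2KD values lay between those of wKD, with a log2 ratio of -0.03 (SE 0.33). The sign of that value turned under 6 alternatives. Transib1 and Transib4 had log2 ratios of -0.27 (SE 0.74) and -0.65 (SE 0.87), with overlapping groups. Transib1 had 21 and 33 counts in Ars2KD against 43 and 44 counts in wKD, and Transib4 had 6 and 25 counts in Ars2KD against 26 and 28 counts in wKD. Transib3 had 16 and 3 counts in Ars2KD against 13 and 26 counts in wKD, and its log2 ratio of 0.16 (SE 1.29) came from values of 0.82 in number 1 and -2.34 in number 2. Transib-N1, a short non-autonomous form, had 5 and 0 counts in Ars2KD against 6 and 5 counts in wKD.

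Among names that the table files under Tc1-like elements, FB4 included, 6 were tested and the median log2 ratio was -0.32. S had 5292 and 3630 CPM in Ars2KD 1 and 2, and 5144 and 4806 CPM in wKD 1 and 2. The groups overlapped, with a log2 ratio of -0.16 (SE 0.32), and 0.04 (-0.19 to 0.27) and -0.40 (-0.55 to -0.26) within numbers. In 42AB S reads were 77 and 97 counts in Ars2KD against 164 and 462 counts in wKD, or -0.57 (-0.98 to -0.17) and -1.48 (-1.81 to -1.16) within numbers. In 38C S had 70 and 208 counts in Ars2KD against 68 and 304 counts in wKD, or 0.57 (0.06 to 1.07) and 0.22 (-0.04 to 0.48). Elsewhere it had 0.29 (-0.07 to 0.65) in number 1 and -0.22 (-0.43 to -0.01) in number 2.

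Mariner2 had the highest log2 ratio of the 18 names. It had 753 and 657 CPM in Ars2KD 1 and 2, and 331 and 370 CPM in wKD 1 and 2, a log2 ratio of 0.99 (SE 0.40, unadjusted p 0.0379, edgeR adjusted p 0.527). The groups did not overlap, and the values within numbers were 1.19 (0.41 to 1.99) and 0.83 (0.42 to 1.23). Without its largest copy the log2 ratio was 0.15. TC1-2 had 813 and 167 CPM in Ars2KD 1 and 2, and 896 and 512 CPM in wKD 1 and 2, a log2 ratio of -0.58 (SE 0.69). Without Ars2KD 1 it was -2.01 with an edgeR adjusted p of 0.0443, where 3.23% of all names were called lower, and without Ars2KD 2 it was 0.24, so its direction rested on single libraries. TC1_DM had 19 and 27 counts in Ars2KD against 13 and 65 counts in wKD, a log2 ratio of 0.32 (SE 0.68). S2 had 7 and 4 counts in Ars2KD against 12 and 13 counts in wKD, a log2 ratio of -0.49 (SE 1.47).

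Of the remaining superfamilies, looper1 had 1011 and 1245 CPM in Ars2KD 1 and 2, and 1393 and 1408 CPM in wKD 1 and 2. The groups did not overlap, and the fitted log2 ratio was -0.31 with SE 0.31 (edgeR adjusted p 0.933). MARINA, a mariner-type repeat, had 4 and 5 counts in Ars2KD against 17 and 58 counts in wKD. Its log2 ratio of -2.17 (SE 0.98, edgeR adjusted p 0.545) was the lowest of the group, at -1.56 (-3.59 to 0.05) in number 1 and -2.76 (-4.44 to -1.46) in number 2. A 135 bp copy on 3R (3R:4945688-4945822, 112 bp from the gene Cdep) held 75% of its reads. pogo, the founder of the pogo branch of the Tc1-mariner group, had 9 and 0 counts in Ars2KD against 8 and 10 counts in wKD. Of these 3 elements only looper1 had an SE under 0.5 on the log2 scale.

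The 8 names with reads that were not tested had 100 reads together. MINOS had 3 and 14 counts in Ars2KD against 5 and 10 counts in wKD, and BARI_DM had 1 and 3 counts in Ars2KD against 2 and 16 counts in wKD. The other 6 (BARI1, Galileo, P_DG, POGON1, MuDR-1_DEl and PLACW) had 4 to 12 counts over the 4 libraries. P-type names other than Hoppel had 23 reads in all. For the 5 names with no read a count of 0 allows up to 3 counts per library, which equals 59.5 and 18.6 CPM in Ars2KD 1 and 2 and 41.4 and 10.9 CPM in wKD 1 and 2.

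**Figure D3:**
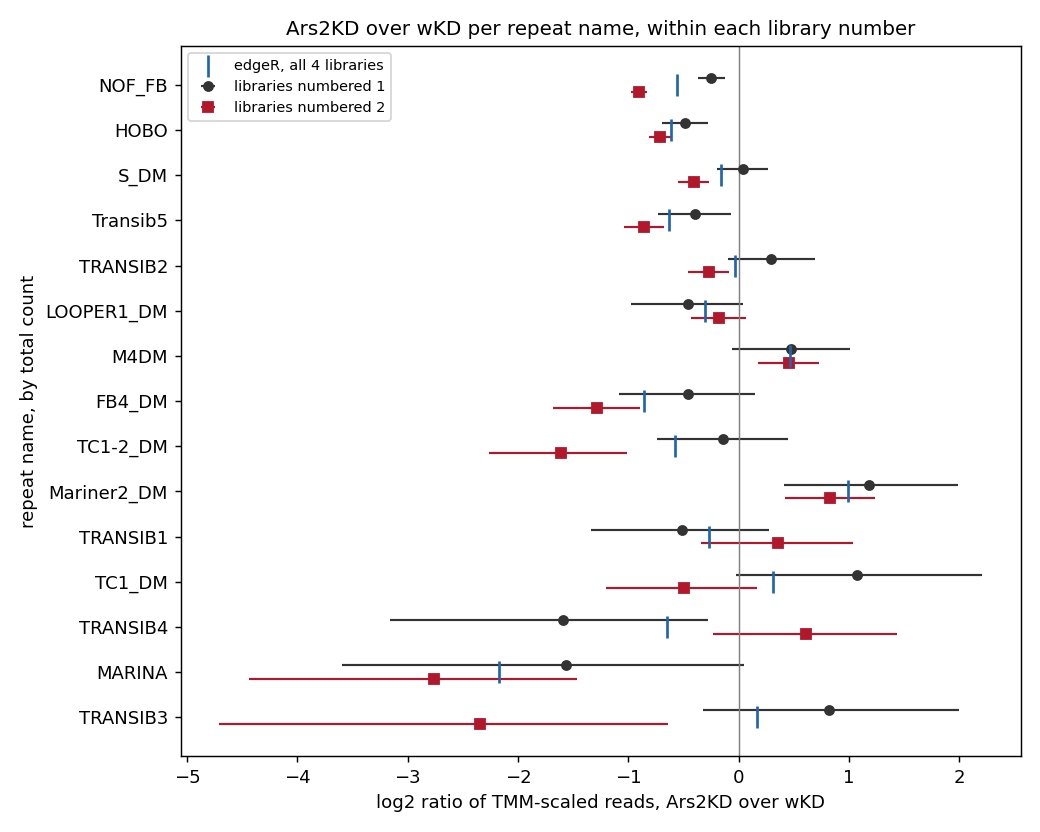
Log2 ratio of TMM-scaled reads, Ars2KD over wKD, for tested repeat names with at least 50 counts, between the libraries numbered 1 (black circles) and numbered 2 (red squares), with exact 95% binomial intervals of the counts. Blue ticks give the edgeR ratio over all 4 libraries. NOF, hobo and Transib5 lie left of 0 with both intervals clear of it, and Mariner2 lies right of 0 with both clear.

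Single copies were tested in the same way. Of 60 member copies tested, 0 passed the edgeR test in either direction, where 0.0607% of all 1647 copies were called higher and 0% lower. At an unadjusted p under 0.05, 2 were higher, against 2.13% of all copies, and 2 were lower, against 2% of all. DESeq2 and limma-voom called 0. With the replicate number fitted as a block in edgeR, 1 member copy was called higher (against 1.4% of all copies) and 6 lower (against 2.79%). These were a Mariner2 copy, higher, and copies of hobo, NOF and FB4, lower. The labels do not say what a number shares, and there are only 2 pairs. Below 0 were 42 of 60 member copies, against 50.8% of all copies. Both Ars2KD libraries were below both wKD libraries for 21 member copies (35%, against 16.9% of all copies) and above for 6 (10%, against 17%). Some copies, such as the FB4 copy on 3L described below, passed the low-count filter only through the group where they were high. These counts, and those by cluster below, are therefore a description and not a test. The simulated test of copies recovered 0% even of 8-fold changes among 1695 copies, so 0 calls does not show that the copies were alike.

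The values of single copies are given by cluster. In 42AB, 16 of 17 tested member copies had a log2 ratio below 0, with a median of -0.93, and 10 (58.8%) had both Ars2KD libraries below both wKD libraries. The other repeats of 42AB had 77 of 93 tested copies below 0 and a median of -0.58, and for 39 (41.9%) both Ars2KD libraries were below. In 38C, 4 of 12 tested member copies were below 0, with a median of 0.18, and both Ars2KD libraries were above both wKD libraries for 4 (33.3%) and below them for 2 (16.7%). The other repeats of 38C had 14 of 33 below 0 and a median of 0.13, with both Ars2KD libraries above for 4 (12.1%) and below for 5 (15.2%). Elsewhere 22 of 31 member copies were below 0, with a median of -0.34, while 704 of 1461 copies of other repeats were below 0, with a median of 0.04. Copies within a cluster may come from shared transcripts and near-identical copies may share reads, so they are not replicates, and the difference between the clusters was not tested.

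Summed over the members, 42AB had 23072 and 17929 CPM in Ars2KD 1 and 2, and 30037 and 34306 CPM in wKD 1 and 2. The log2 ratios were -0.38 (-0.48 to -0.28) and -0.94 (-0.997 to -0.876) within numbers. The other repeats of 42AB had -0.29 (-0.33 to -0.26) and -0.54 (-0.55 to -0.52). Members in 38C had 6561 and 6332 CPM in Ars2KD, and 5999 and 7311 CPM in wKD, or 0.13 (-0.08 to 0.34) and -0.21 (-0.32 to -0.10). Members outside the 5 clusters had 9713 and 7707 CPM in Ars2KD and 9116 and 9790 CPM in wKD, or 0.09 (-0.08 to 0.26) and -0.35 (-0.44 to -0.25). Of these 3 sums, that of 42AB alone had both intervals below 0. NOF gave 10891 of the 15687 member reads in 42AB. Within 38C the names differed. Transib5 there had -0.50 (-0.88 to -0.13) and -0.92 (-1.11 to -0.72) within numbers, while hobo, S, M4DM and Transib2 there were not below 0.

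**Figure D4:**
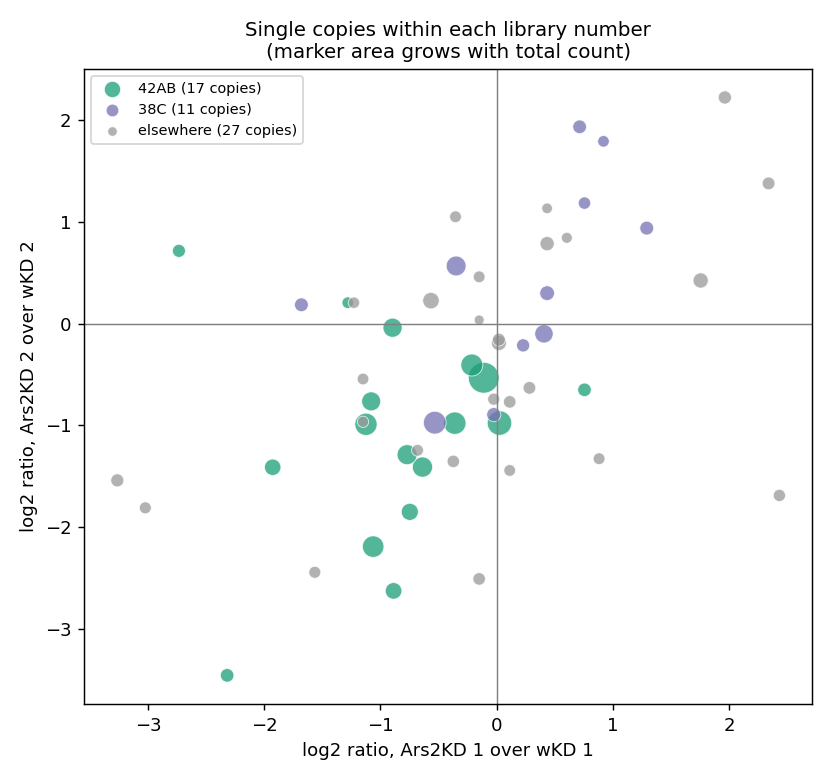
Log2 ratio of each tested member copy between libraries numbered 1 (horizontal axis) and numbered 2 (vertical axis), with marker area growing with total count, for the 55 copies with a count in all 4 libraries. In 42AB (green) 13 of 17 copies lie below 0 on both axes and 0 above 0 on both, and in 38C (purple) 2 of 11 lie below and 5 above on both.

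Within 42AB, hobo and NOF fragments lay side by side in a repeated order. At 2R:6287766-6290536, 2 abutting hobo fragments were followed after 49 bp by 2 NOF fragments, set 1 bp apart. The same order, with the same gaps of 49 bp and 1 bp, returned at 2R:6323291-6324751. There an FB4 copy without a read (2R:6324012-6324066) spans the 49 bp gap. Further NOF fragments lay at 2R:6292533-6293077, 2R:6326890-6326979 and in a group of 3 at 2R:6339826-6340514, all between genes, with Pld the nearest gene. The longest NOF fragment (2R:6288855-6290536, 1682 bp) held 44.7% of NOF reads, with 9155 and 6482 CPM in Ars2KD 1 and 2, and 9885 and 9367 CPM in wKD 1 and 2. Its groups did not overlap, and its log2 ratio was -0.30 (SE 0.44). The first NOF fragment of the second array (2R:6324061-6324500) had 2727 and 2094 CPM in Ars2KD and 2680 and 4119 CPM in wKD, so its groups overlapped.

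The other fragments had log2 ratios from -2.65 to 0.08, the highest being the 90 bp NOF fragment (2R:6326890-6326979) with 1 and 43 counts in Ars2KD against 9 and 47 counts in wKD. The NOF fragment (2R:6292533-6293077) carried 17 and 107 counts in Ars2KD against 48 and 876 counts in wKD. The fitted log2 ratio was -1.89 (SE 0.81, edgeR adjusted p 0.998), and it was -1.06 (-1.95 to -0.24) in number 1 and -2.19 (-2.49 to -1.90) in number 2. The 8 repeats within 2 kb of it, 5 of them fragments of the LINE element Rt1b, had together 0.01 (-0.08 to 0.10) and -0.08 (-0.13 to -0.03) within numbers. The short NOF fragment (2R:6324502-6324751) carried 8 and 3 counts in Ars2KD against 54 and 59 counts in wKD, a log2 ratio of -2.65 (SE 1.16). The repeats within 2 kb of it had -0.38 (-0.53 to -0.24) in number 1 and -0.50 (-0.57 to -0.42) in number 2. The hobo fragment (2R:6323603-6324011) carried 14 and 39 counts in Ars2KD against 72 and 186 counts in wKD. Its log2 ratio came to -1.70 (SE 0.61, unadjusted p 0.0268, edgeR adjusted p 0.998), and it was -1.93 (-2.87 to -1.09) in number 1 and -1.41 (-1.95 to -0.91) in number 2. Its neighbours within 2 kb, which include that short NOF fragment, had -0.28 (-0.40 to -0.16) in number 1 and -0.43 (-0.49 to -0.37) in number 2. The matching hobo fragment of the first array (2R:6287940-6288352) carried 10 and 27 counts in Ars2KD against 8 and 76 counts in wKD, with overlapping groups and a log2 ratio of -0.11 (SE 0.73).

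**Figure D5:**
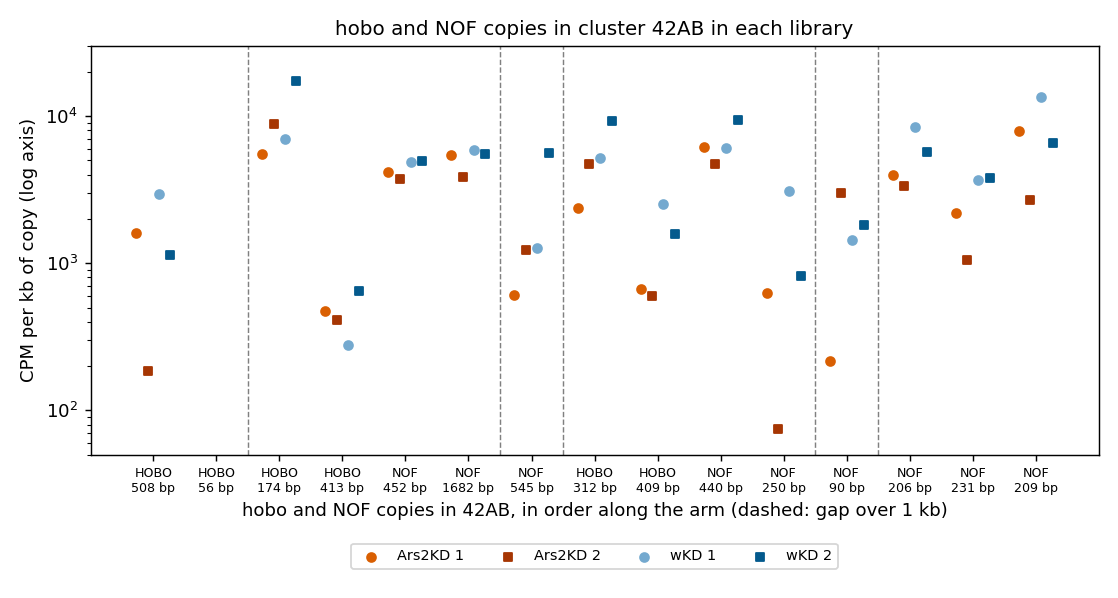
CPM per kb of copy (log axis) for each hobo and NOF copy of 42AB in each library, in order along the arm, with dashed lines at gaps over 1 kb; counts of 0 are not drawn, and the 56 bp hobo copy had none. Both Ars2KD markers (orange) lie below both wKD markers (blue) for the 250 bp NOF copy, whose log2 ratio was -2.65. The groups overlap for the NOF copies of 440, 90 and 209 bp and the hobo copies of 508, 174 and 413 bp.

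Outside the clusters, a foldback copy had the lowest p of all member copies. It is a 525 bp FB4 fragment in an intron of SPoCk, a calcium pump gene (3L:22751206-22751730, annotated as insertion FB{}1604). It had 0 and 0 counts in Ars2KD 1 and 2, and 6 and 92 counts in wKD 1 and 2. It passed the low-count filter through the wKD libraries alone. The exact 95% interval of the log2 ratio reached up to 0.20 in number 1, which includes no difference, and up to -3.77 in number 2. In edgeR it had an unadjusted p of 0.0045 and an adjusted p of 0.692. It was called lower when no low-count filter was used (edgeR adjusted p 0.0059, where 0.0264% of all copies were called lower) and without wKD 1 (edgeR adjusted p 0.0367, where 0.186% were). With the replicate number fitted as a block it was also called lower (edgeR adjusted p 0.000151, where 2.79% of all copies were). The copy held 21.4% of FB4 reads, and without the largest copy of each name FB4 had a log2 ratio of -0.53. Repeats within 2 kb had 2 and 0 counts in Ars2KD and 1 and 6 counts in wKD, too few to compare.

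The other lower copies of lowest p included a Transib2 fragment on the X (X:23006374-23006653, 1019 bp from asRNA:CR45009). It had 1 and 7 counts in Ars2KD against 11 and 44 counts in wKD, a log2 ratio of -2.14 (SE 0.94, unadjusted p 0.0557). Like the FB4 copy, it passed the low-count filter through the wKD libraries alone. An adjoining Transib2 fragment of the same annotated insertion (X:23006036-23006359) had 3 and 63 counts in Ars2KD against 4 and 129 counts in wKD, with -0.15 (SE 1.12).

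On the higher side, the Mariner2 copy of lowest p lay at 3L:23465593-23465956, between genes. It overlaps annotated insertions of jockey and mariner2. It had 26 and 52 counts in Ars2KD against 9 and 20 counts in wKD. Its log2 ratio was 2.09 (SE 0.74, unadjusted p 0.0251, edgeR adjusted p 0.998), and it was 1.97 (0.83 to 3.24) in number 1 and 2.22 (1.45 to 3.04) in number 2. It held 39.6% of Mariner2 reads. The repeats within 2 kb of it, all LINEs, had 187 and 620 counts in Ars2KD against 89 and 294 counts in wKD. Their sum had 1.51 (1.13 to 1.89) and 1.92 (1.72 to 2.12) within numbers. In number 1 the single neighbours had 0.81 to 2.85. In number 2 the Rt1a copies had 2.70 (2.43 to 2.99) and 1.68 (0.91 to 2.48). The jockey, Cr1a and F copies had 0.18 (-0.49 to 0.82), 0.10 (-0.53 to 0.71) and 0.69 (-0.31 to 1.68) there. An S copy on 2R (2R:4889280-4889747, 5983 bp from CG44102) carried 15 and 42 counts in Ars2KD against 4 and 29 counts in wKD, a log2 ratio of 1.73 (SE 0.71, unadjusted p 0.0446). Its neighbours, mostly a gypsy7 element, had 16 and 18 counts in Ars2KD against 4 and 12 counts in wKD.

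The next higher copies all lay in 38C. An S fragment (2L:20172568-20173301) had 17 and 66 counts in Ars2KD against 14 and 31 counts in wKD, a log2 ratio of 1.30 (SE 0.70). The adjoining S fragment of the same insertion (2L:20173313-20174151) had 53 and 142 counts in Ars2KD against 54 and 273 counts in wKD, with 0.15 (SE 0.54). An M4DM copy (2L:20169482-20170273) had 29 and 47 counts in Ars2KD against 16 and 44 counts in wKD, a log2 ratio of 1.16 (SE 0.70). The repeats within 2 kb of it had -0.27 (-0.67 to 0.13) in number 1 and -0.13 (-0.32 to 0.07) in number 2. The other M4DM copy (2L:20213659-20214371) had 7 and 27 counts in Ars2KD against 5 and 14 counts in wKD, a log2 ratio of 1.38 (SE 0.85). That copy passed the low-count filter through the Ars2KD libraries alone. None of these copies passed the edgeR test (adjusted p 0.998 for each).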

How the data were processed

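The authors deposited raw counts of 24 to 29 nt reads per annotated repeat copy, and counts per miRNA; both were used as deposited. Per the submitters' processing notes, FastQC, Trimmomatic, Bowtie2 and featureCounts were used with genome build dm6. Treatment of strand and of reads with several matches is not given in the sources used here. Values of near-identical copies are therefore uncertain. RNA was size-selected at 19 to 29 nt, per the labels' protocols. No other depth than the table totals was used. The members and lists were chosen with earlier results of these data known.

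Counts were summed per repeat name, with simple repeats and low-complexity sequence as 1 feature per class, and tested with edgeR 4.0.16 (R 4.3.3; TMM scaling, filterByExpr, quasi-likelihood test, Benjamini-Hochberg adjustment over all 177 names or 1647 copies, threshold 0.05), Ars2KD against wKD with 2 libraries each. All tested names are named, with untested names of 20 or more counts, the largest copy of each tested name and the 5 copies of lowest p in each direction. Other copies, such as those of the hobo and NOF arrays, were chosen after their values were seen. Ratios within a number have exact 95% binomial intervals, which like the floor of 3 counts cover counting error only. Alternatives used DESeq2 1.42.0, limma 3.58.1 (voom), other scalings and filters, a replicate block and each library left out. The tests were also tried on counts simulated at the spread of the main fits. Genes and annotated insertions came from the Ensembl BDGP6 annotation, whose sequences matched dm6. Cluster limits are approximate. No sequence is printed because no genome sequence was used here.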

Additional observations from a re-analysis of the deposited data

How the results depend on the processing

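NOF (log2 ratios -0.83 to -0.33), hobo (-0.81 to -0.32), Transib5 (-0.71 to -0.20), FB4 (-1.17 to -0.51), MARINA (-2.76 to -1.46), M4DM (0.37 to 0.53), Mariner2 (0.15 to 1.10) and Transib-N1 (-0.64 to -0.03) kept their sign in each alternative that gave a value. The sign turned for Transib2 with DESeq2 size factors (0.0375), table-total scaling (0.0630), DESeq2 (0.0358) and overlapping copies left out (0.0625), with limma-voom for pogo (-1.22), TC1_DM (-0.26), Transib1 (0.19), Transib3 (-1.58) and Transib4 (0.34), and without the largest copy of each name for looper1 (0.0181), S (0.14) and Transib1 (0.14). The cause was not tested.

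The replicate number fitted as a block turned pogo (-0.56) and Transib3 (-0.47), called 0 member names, and called 1 member copy higher (against 1.4% of all copies) and 6 lower (against 2.79%). These were the Mariner2 copy on 3L (2.10), and copies of hobo, NOF and FB4 that were lower (edgeR adjusted p 0.000151 to 0.0459). Deviations of same-numbered libraries correlated at 0.64 over the 18 members, but there are only 2 pairs and the labels do not say what a number shares. Without a low-count filter 1 member copy was called lower (the FB4 copy on 3L, against 0.0264% of all copies).

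With each library left out in turn, called names ranged from 0 to 1 lower (TC1-2 at -2.01 without Ars2KD 1, against 3.23% of names), called copies from 0 to 1 lower (the FB4 copy without wKD 1, against 0.186%), and the share difference from -1.69 to -0.44 percentage points. Signs turned in these settings for pogo (-6.49 to 1.47), S2 (-1.88 to 0.60), S (-0.41 to 0.10), TC1-2 (-2.01 to 0.24), TC1_DM (-0.28 to 0.84), Transib1 (-0.97 to 0.94), Transib2 (-0.27 to 0.35), Transib3 (-2.73 to 1.29) and Transib4 (-1.35 to 0.50). The lone library of a group was then assumed to vary like the other group. As a percent of miRNA counts, member reads were 0.304% and 0.141% in Ars2KD 1 and 2, against 0.311% and 0.312% in wKD 1 and 2, a difference of -0.0887 points that lay in Ars2KD 2. Scaling to both tables moved the median of all names to -0.15 and that of the members to -0.39. The shallow libraries limit every name under about 100 counts.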
